A study of Mus musculus with 4 samples.

Results

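The genes described here are the histone lysine methyltransferases, the histone lysine demethylases and the core subunits of their complexes, measured in macrophages that were flow sorted from mouse liver tumours. Members were found by gene symbol. They are the rows of the deposited table that start with Kmt, Kdm or Setd in the numbered families, together with Wdr5, Ash2l, Rbbp5, Dpy30, Ezh1, Ezh2, Eed, Suz12, Nsd1, Ehmt1, Ehmt2, Suv39h1 and Dot1l. Of 49 matching rows, Kdm5c, Kdm5d and Kdm6a on the sex chromosomes were left out, which gave 46 members among the 24784 genes of the table. Of these, 16 were grouped as H3K4 members, the enzymes and subunits linked to lysine 4 of histone H3, and 30 as other members, some of which have other or unsettled substrates.

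The libraries came from 2 samples labelled OXCT1mKO and 2 labelled control. All 4 came from male animals of 6 to 8 weeks, and both groups had received Hepa 1-6, a hepatoma line of mouse origin, so the controls bore tumours too. Oxct1, the gene named in the label, encodes the mitochondrial enzyme that passes coenzyme A from succinyl-CoA to acetoacetate and releases succinate. The sources used here do not give how the gene was deleted, in which cells, or whether a library pools several mice.

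Histone lysine methyltransferases place methyl groups on histone tails with S-adenosylmethionine as the donor, nearly all of them through a SET domain. The KMT2 and SETD1 enzymes other than KMT2E methylate H3K4 at enhancers and promoters. They are active only together with the shared subunits WDR5, RBBP5, ASH2L and DPY30. Polycomb repressive complex 2 (PRC2), with EZH1 or EZH2, EED and SUZ12, methylates lysine 27. The KDM1 demethylases use FAD, whereas all other KDM enzymes carry a JmjC domain that needs iron, oxygen and 2-oxoglutarate and is inhibited by succinate. In macrophages, the lysine 27 demethylase KDM6B is known as an early response gene to inflammatory stimuli.

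The promoters of 4 called members, picked after their values were seen, are shown next, because H3K4 methylation is densest at promoters rich in CpG dinucleotides. Each run holds the 200 bases before the annotated start in RefSeq, build GRCm38.p6, read 5′ to 3′ on the strand of the gene, with CpG dinucleotides in capitals.
Kmt2c (chr5:25498784-25498983, minus strand): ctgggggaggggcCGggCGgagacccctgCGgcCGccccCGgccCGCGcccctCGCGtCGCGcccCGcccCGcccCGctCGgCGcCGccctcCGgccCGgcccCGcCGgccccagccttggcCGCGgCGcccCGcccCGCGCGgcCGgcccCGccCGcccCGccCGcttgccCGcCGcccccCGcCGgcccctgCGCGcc
Kdm7a (chr6:39206774-39206973, minus strand): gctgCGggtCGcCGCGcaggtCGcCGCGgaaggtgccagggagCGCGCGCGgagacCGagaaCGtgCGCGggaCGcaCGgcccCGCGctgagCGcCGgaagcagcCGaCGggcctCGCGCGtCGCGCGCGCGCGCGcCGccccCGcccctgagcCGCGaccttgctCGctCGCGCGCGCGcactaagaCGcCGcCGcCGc
Setd7 (chr3:51560824-51561023, minus strand): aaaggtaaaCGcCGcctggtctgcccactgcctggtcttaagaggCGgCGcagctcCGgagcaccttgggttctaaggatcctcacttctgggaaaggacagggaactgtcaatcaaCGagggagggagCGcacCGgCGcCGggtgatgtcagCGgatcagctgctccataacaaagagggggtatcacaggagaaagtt
Wdr5 (chr2:27514947-27515146, plus strand): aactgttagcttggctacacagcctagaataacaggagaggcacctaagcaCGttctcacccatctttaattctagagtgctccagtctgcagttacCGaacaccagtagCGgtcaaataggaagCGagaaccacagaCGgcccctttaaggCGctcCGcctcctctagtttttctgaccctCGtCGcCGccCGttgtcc
Kmt2c held 39 CpG dinucleotides in this window and Kdm7a held 47, while Setd7 and Wdr5 held 11 each. The median over 9578 tested genes with a listed start was 14, taking the start with the most CpG dinucleotides where a gene had several. The median over the 36 members with a listed start was 20.5. The first 3 of the 4 genes rose in OXCT1mKO and Wdr5 fell, so Setd7 and Wdr5, both below the median of 14, went in opposite directions. Both held more than the median of 5 over all listed starts. With 4 picked genes, no relation between CpG count and direction can be read.

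Levels were deposited as RPKM, the reads of a gene per kilobase of its model and scaled to the size of the library. They summed to 327811 and 325034 in OXCT1mKO 1 and 2 and to 377575 and 355951 in control 1 and 2. The absolute read depth is unknown, and ratios of low values placed the relative depths between 0.911 and 1.03 of control 1. The sorting antibodies are not named in those sources. All 10 listed macrophage markers were present, with 6 called higher. Their summed level was 1741 and 1926 RPKM in OXCT1mKO and 1538 and 882 RPKM in control. C1qa, C1qb and C1qc had the highest levels of the list in each library and were not called. The median log2 fold change (OXCT1mKO minus control) of the 10 was 1.03, from 0.33 to 1.80. Markers of other cells were present too. The summed level of 17 markers of dividing cells was 279 and 287 RPKM in OXCT1mKO and 470.1 and 416 RPKM in control, with 14 lower. For 11 T cell markers it was 65.5 and 110.0 RPKM in OXCT1mKO and 277 and 184 RPKM in control, with 5 lower, and for 7 endothelial markers it was 885 and 778 RPKM in OXCT1mKO and 364 and 480.3 RPKM in control, with 6 higher. Hepatoma and epithelial markers (3 of 7 lower) summed to 623 and 567 RPKM in OXCT1mKO and 787 and 1100.1 RPKM in control. The summed level of 7 neutrophil markers overlapped between groups, at 576 and 395 RPKM in OXCT1mKO and 167 and 1268 RPKM in control. Of the 6 tested, limma called 1 lower. Globin genes made up 8.81% of the RPKM sum of control 1 against 0.132% to 0.327% in the other libraries. Hepatocyte markers had 2 of 7 higher and 1 lower, and limma called 0 of 5 B cell markers, with 0 at an unadjusted p under 0.05. The part of these cell type markers in the results that follow was not tested. In such bulk samples, fewer cells of a type and less RNA per cell cannot be told apart. Oxct1 itself was at 14.7 and 15.4 RPKM in OXCT1mKO and 19.3 and 20.3 RPKM in control, or -0.37 ± 0.09 (SE) as a log2 fold change with a limma adjusted p of 0.0346, so its transcript remained in the libraries labelled OXCT1mKO.

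The question of the comparison was which of these enzymes differed in transcript level between OXCT1mKO and control. Of the 46 members, 44 reached a mean of 1 RPKM and were tested. Kdm4d (0.0247 to 0.0709 RPKM) and Setd4 (0.492 to 1.65 RPKM) did not. A gene was called when its limma p-value was under 0.05 after Benjamini-Hochberg adjustment over the 12523 genes in the fit, and log2 fold changes are given with their SE. Of the 44 members 13 were called, 7 higher and 6 lower, or 29.5%, whereas 32.8% of all genes tested were called. The share higher was 16.4% and the share lower was 16.4% over all genes. As a family, the members were thus called about as often as any gene, and the results below concern single members and roles. In 32 of the 44 (72.7%) both OXCT1mKO libraries lay on the same side of both control libraries, which held for 74.7% of all genes tested. Of these members 21 were higher and 11 lower, beside 37.6% and 37% of all genes. The median log2 fold change was 0.10 over the tested members and 0.00 over all genes tested. Without OXCT1mKO 1 or without OXCT1mKO 2, limma called 0 members, and 1 and 10 genes over the whole table. The members with an unadjusted p under 0.05 numbered 11 in each of those fits. In those fits the lone OXCT1mKO library is assumed to vary like the 2 controls. All 13 called members kept their sign in both. When libraries were scaled to equal RPKM sums with globin genes left aside, the calls over all genes split into 2718 higher and 1479 lower, against 2058 and 2052 as deposited, and the members into 12 higher and 3 lower, with Dpy30, Suv39h1 and Wdr5 no longer called.

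**Figure D1:**
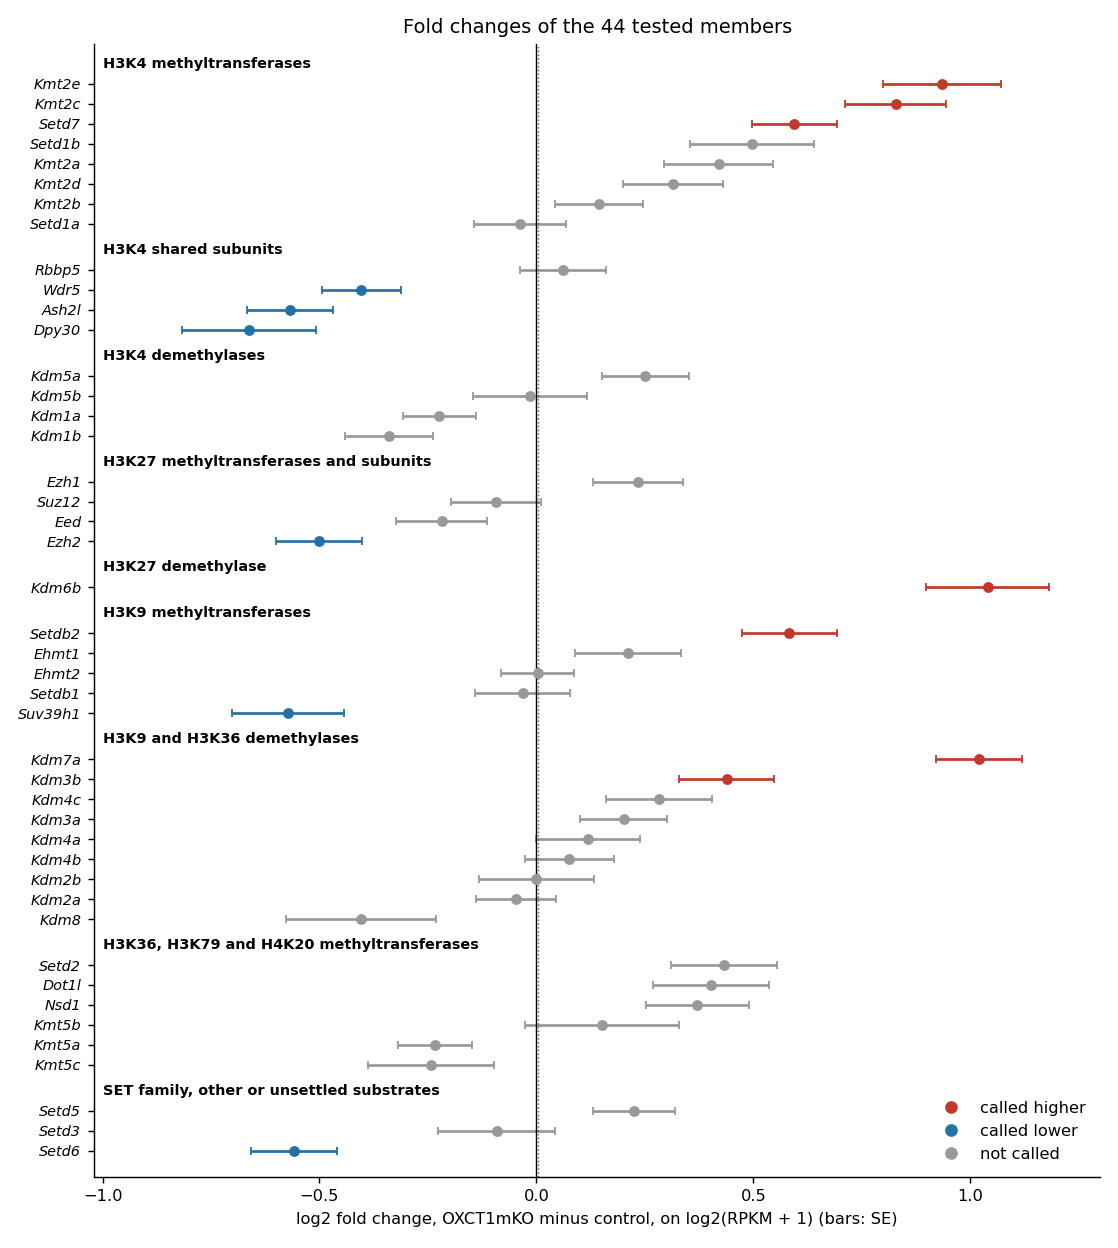
Log2 fold change (OXCT1mKO minus control, on log2(RPKM + 1)) of each of the 44 tested members, by role, with SE bars (n = 2 per group). Red members were called higher and blue members lower at a limma adjusted p under 0.05, grey members were not called, and the dotted line is the median of all genes tested. The called members run from -0.66 for Dpy30 to 1.04 for Kdm6b.

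Called H3K4 methyltransferases were all higher in OXCT1mKO, and called shared subunits were all lower. Of 8 methyltransferases 3 rose and 0 fell, with a median log2 fold change of 0.46. Without Kmt2e and Setd7, 1 of 6 rose, with a median of 0.37. Of the 4 shared subunits 0 rose and 3 fell, with a median of -0.49. Over all genes 16.4% were called in each direction. With the length trend described further on removed, 1593 of 12310 genes were called higher and 2027 lower. In that fit 1 of the 8 methyltransferases was called higher, with a median of 0.12, or 0 of 6 without Kmt2e and Setd7. Of the 4 subunits 2 were called lower, with a median of -0.43. The difference between these roles was not tested. None of the 4 H3K4 demethylases was called by limma, with 2 lower at an unadjusted p under 0.05. At that level 2971 of all 12523 genes tested were lower. Over the H3K4 members as a whole the median was 0.10, the same to 2 decimals as that of the other members. Of 16 H3K4 members 6 were called (37.5%), as were 7 of the 28 other tested members (25.0%), and no test of that difference was made.

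**Figure D2:**
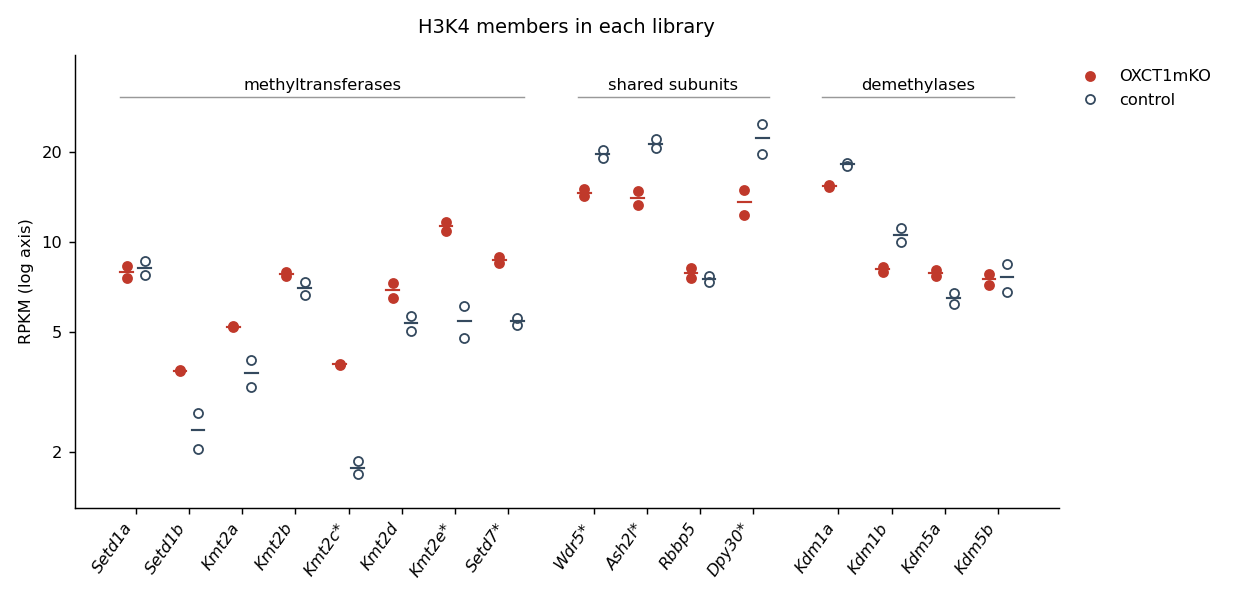
RPKM (log axis) of the 16 H3K4 members in each library, with OXCT1mKO as filled points left of control as open points and a bar at each mean (n = 2 per group). Asterisks mark called members. Kmt2c, Kmt2e and Setd7 lie higher in both OXCT1mKO libraries, and Wdr5, Ash2l and Dpy30 lie lower.

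Among the methyltransferases, Kmt2c, a large enzyme that methylates H3K4 at enhancers, stood at 3.90 and 3.92 RPKM in OXCT1mKO 1 and 2, against 1.68 and 1.86 RPKM in control 1 and 2. Both OXCT1mKO libraries were above both controls, and the mean was 2.21 times that of control. Its log2 fold change was 0.83 ± 0.12 (limma adjusted p 0.0137). The gene lies on chromosome 5, from 25271798 to 25498783 on the minus strand. Its close relative Kmt2d, which shares that role, was at 6.49 and 7.30 RPKM in OXCT1mKO and 5.65 and 5.05 RPKM in control. The groups of Kmt2d did not overlap, but the difference of 0.31 ± 0.11 in log2 units missed the threshold (limma adjusted p 0.0936).

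Kmt2e, a member of the KMT2 family by sequence for which H3K4 activity is unsettled, also rose. It was at 11.6 and 10.9 RPKM in OXCT1mKO and 4.77 and 6.12 RPKM in control, for a difference of 0.94 ± 0.14 in log2 units (limma adjusted p 0.0143). The gene lies on chromosome 5, from 23434441 to 23504235 on the plus strand, and 9.31% of its exon bases overlap those of another gene. Setd7, which adds 1 methyl group to H3K4 and also modifies proteins other than histones, was at 8.50 and 8.92 RPKM in OXCT1mKO and 5.29 and 5.57 RPKM in control. Its log2 fold change was 0.59 ± 0.10 (limma adjusted p 0.0169), with no overlap between groups. Setd7 lies on chromosome 3, from 51515319 to 51560879 on the minus strand.

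The other 4 family members with H3K4 activity besides Kmt2d were not called. Kmt2a, the founding MLL gene, was at 5.23 and 5.20 RPKM in OXCT1mKO and 4.03 and 3.29 RPKM in control (0.42 ± 0.13, limma adjusted p 0.0591). Setd1b, which with Setd1a provides most trimethylation of H3K4 at promoters, was at 3.71 and 3.73 RPKM in OXCT1mKO and 2.03 and 2.69 RPKM in control (0.50 ± 0.14, limma adjusted p 0.0541). Both had groups that did not overlap and missed the threshold. Kmt2b, the nearest relative of Kmt2a, was at 7.70 and 7.97 RPKM in OXCT1mKO and 6.64 and 7.36 RPKM in control, a log2 fold change of 0.14 ± 0.10. Setd1a was at 7.59 and 8.32 RPKM in OXCT1mKO and 7.77 and 8.62 RPKM in control, with overlapping groups and a log2 fold change of -0.04 ± 0.11. For Setd1a, 52.3% of the exon bases overlap exons of other genes, so its level is uncertain.

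The shared subunits sit in the complexes of the KMT2 and SETD1 enzymes other than Kmt2e. Ash2l, which with RBBP5 stimulates the SET domain, was at 13.3 and 14.7 RPKM in OXCT1mKO and 20.5 and 22.0 RPKM in control. Both OXCT1mKO libraries lay below both controls, and the log2 fold change was -0.57 ± 0.10 (limma adjusted p 0.0187). It lies on chromosome 8, from 25815996 to 25847694 on the minus strand. Dpy30, the smallest subunit, which binds ASH2L, was at 14.9 and 12.3 RPKM in OXCT1mKO and 24.7 and 19.6 RPKM in control. Its log2 fold change was -0.66 ± 0.16 (limma adjusted p 0.0342), with a wide spread within each group. Without control 1 its value was -0.51 (limma adjusted p 0.0727).

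Wdr5, the propeller protein that joins the complexes and also belongs to others, was at 14.2 and 15.0 RPKM in OXCT1mKO and 20.3 and 19.0 RPKM in control. Its log2 fold change was -0.40 ± 0.09 (limma adjusted p 0.0317), and -0.36 without control 1 (limma adjusted p 0.0601). Wdr5 lies on chromosome 2, from 27515157 to 27536535 on the plus strand, and Dpy30 on chromosome 17, from 74299474 to 74323944 on the minus strand. Rbbp5 differed from these 3 in that its groups overlapped, at 7.57 and 8.17 RPKM in OXCT1mKO and 7.67 and 7.33 RPKM in control (0.06 ± 0.10). A difference between Rbbp5 and the other subunits was not tested, and 39.7% of its transcript has a copy elsewhere in the annotation at 95% identity or more.

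Among the H3K4 demethylases, Kdm1a, which removes mono- and dimethylation within the CoREST complex, was at 15.5 and 15.2 RPKM in OXCT1mKO and 18.3 and 17.9 RPKM in control (-0.22 ± 0.08, limma adjusted p 0.0999). Its relative Kdm1b was at 7.95 and 8.28 RPKM in OXCT1mKO and 9.98 and 11.1 RPKM in control (-0.34 ± 0.10, limma adjusted p 0.0588). Both FAD-dependent enzymes were lower in both OXCT1mKO libraries without passing the threshold.

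The JmjC enzymes of H3K4 remove trimethylation. Kdm5a was at 7.71 and 8.08 RPKM in OXCT1mKO and 6.19 and 6.76 RPKM in control, 0.25 ± 0.10 apart in log2 units, which missed the threshold (limma adjusted p 0.114). Kdm5b was at 7.79 and 7.21 RPKM in OXCT1mKO and 6.80 and 8.45 RPKM in control, where the groups overlapped (-0.02 ± 0.13).

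RPKM is scaled by length, so summed levels of roles were set against each other within a library. The summed level of the 6 KMT2 and SETD1 enzymes other than Kmt2e was 34.6 and 36.4 RPKM in OXCT1mKO and 27.8 and 28.9 RPKM in control. That of the 4 H3K4 demethylases was 38.9 and 38.8 RPKM in OXCT1mKO and 41.3 and 44.2 RPKM in control. The ratio of demethylases to methyltransferases was 1.09 ± 0.04 in OXCT1mKO and 1.51 ± 0.03 in control (SD, n = 2 each), and the groups did not overlap. The 4 shared subunits summed to 49.95 and 50.2 RPKM in OXCT1mKO and 73.1 and 67.9 RPKM in control. Their ratio to the methyltransferases, chosen after the values were seen, was 1.41 ± 0.05 in OXCT1mKO and 2.49 ± 0.20 in control. These ratios carry no correction for the length trend described further on. With it removed, the median log2 fold change of the 6 enzymes was -0.02, against 0.37 as deposited. That of the 4 demethylases was -0.34, against -0.12, and that of the 4 subunits -0.43, against -0.49. No test was applied to these sums, and transcript levels give no amounts of protein or of histone methylation.

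**Figure D3:**
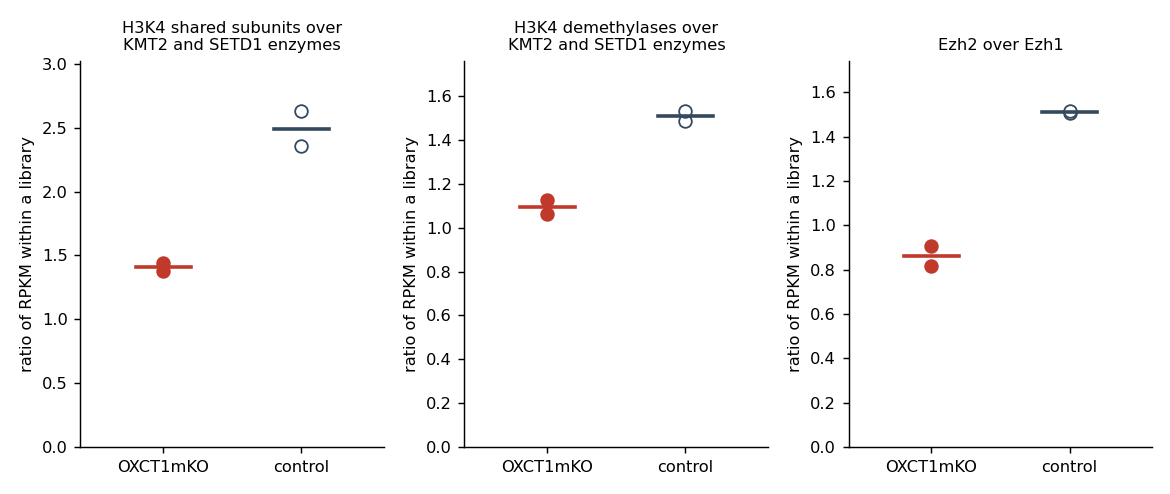
Ratios of RPKM within each library (points; bars are means, n = 2 per group), with OXCT1mKO left of control and the axis starting at 0. From left to right they are the shared subunits over the 6 KMT2 and SETD1 enzymes, the H3K4 demethylases over the same enzymes, and Ezh2 over Ezh1. Each ratio is lower in both OXCT1mKO libraries than in both controls.

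Among the genes for lysine 27, the demethylase rose and a catalytic subunit of the methyltransferase fell. Kdm6b, on chromosome 11, from 69398508 to 69413675 on the minus strand, was at 48.9 and 46.7 RPKM in OXCT1mKO and 20.0 and 25.8 RPKM in control. Both OXCT1mKO libraries were above both controls by a wide margin, with a mean of 47.8 ± 1.56 RPKM in OXCT1mKO and 22.9 ± 4.15 RPKM in control (SD, n = 2 each). Its log2 fold change was 1.04 ± 0.14 (limma adjusted p 0.0131).

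Ezh2, the PRC2 enzyme of dividing cells, was at 8.26 and 8.58 RPKM in OXCT1mKO and 13.0 and 11.7 RPKM in control, -0.50 ± 0.10 in log2 units (limma adjusted p 0.024). Ezh1, the PRC2 enzyme that prevails in resting cells, was at 10.1 and 9.47 RPKM in OXCT1mKO and 8.63 and 7.74 RPKM in control and was not called (0.23 ± 0.10, limma adjusted p 0.14). The ratio of Ezh2 to Ezh1 was 0.816 and 0.906 in OXCT1mKO and 1.50 and 1.51 in control, so the enzyme with the higher level per length was Ezh1 in both OXCT1mKO libraries and Ezh2 in both controls. The markers of dividing cells given above were lower as well, and their part in the value of Ezh2 was not tested. The noncatalytic subunits were not called. Eed was at 16.4 and 14.7 RPKM in OXCT1mKO and 17.4 and 19.1 RPKM in control (-0.22 ± 0.10). Suz12 was at 14.1 and 16.3 RPKM in OXCT1mKO and 16.4 and 16.1 RPKM in control with overlapping groups (-0.09 ± 0.10).

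Of the 5 lysine 9 methyltransferases 1 rose and 1 fell, or 40%, where 32.8% of all genes were called. Setdb2, a SET domain enzyme linked to the repression of inflammatory genes in mouse macrophages, was at 4.61 and 4.33 RPKM in OXCT1mKO and 2.66 and 2.65 RPKM in control (0.58 ± 0.11, limma adjusted p 0.0214). Suv39h1, which trimethylates lysine 9 in pericentric heterochromatin, was at 6.51 and 7.29 RPKM in OXCT1mKO and 11.8 and 9.75 RPKM in control (-0.57 ± 0.13, limma adjusted p 0.0316). Without control 1 the value of Suv39h1 was -0.45 (limma adjusted p 0.0617), and 14.6% of its exon bases overlap a gene on the opposite strand. Neither gene had overlapping groups. Suv39h1 lies on the X chromosome and was kept, since the family rule names it.

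The remaining lysine 9 enzymes were not called. Ehmt2 encodes a partner in the dimer that dimethylates lysine 9 in euchromatin. It was at 33.1 and 33.5 RPKM in OXCT1mKO and 32.3 and 34.1 RPKM in control, with overlapping groups. Its partner Ehmt1 (0.21) and the heterochromatin enzyme Setdb1 (-0.03) did not pass either.

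Of 9 tested demethylases of lysine 9 and lysine 36, 2 rose and 0 fell, where 16.4% of all genes were called in each direction. With the length trend described further on removed, 1 was called higher and 1 lower. Kdm7a, which acts on lysines 9 and 27 and reads H3K4 trimethylation through its PHD finger, was at 10.5 and 10.4 RPKM in OXCT1mKO and 4.85 and 4.43 RPKM in control. Its mean was 2.25 times that of control, the replicates of each group lay close together, and it had the smallest p of all members (1.02 ± 0.10, limma adjusted p 0.0127). Kdm7a lies on chromosome 6, from 39136623 to 39206789 on the minus strand. Kdm3b, a lysine 9 demethylase, was at 10.5 and 10.3 RPKM in OXCT1mKO and 7.99 and 6.85 RPKM in control (0.44 ± 0.11, limma adjusted p 0.0394). Without control 2 it was at 0.34 (limma adjusted p 0.0605), and 24.6% of its exon bases overlap a gene on the opposite strand. The 7 others ranged from -0.40 for Kdm8 to 0.28 for Kdm4c, and Kdm2a, Kdm2b and Kdm4a had overlapping groups.

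Among the Kdm genes with a JmjC domain, 3 of 12 tested rose (Kdm6b, Kdm7a and Kdm3b) and 0 fell, with a median log2 fold change of 0.16, where 16.4% of all genes were called higher. With the length trend removed, 2 were called higher and 1 lower, with a median of 0.0051. Over all 12310 genes of that fit 1593 were called higher and 2027 lower, with a median of -0.05. Of the listed JmjC genes outside the family rule, Riox1 (-0.45) and Jmjd6 (-0.32) were called lower, and Uty (0.85) and Jarid2 (0.65) higher. Not called were Jmjd1c (0.74), Phf8 (0.54), Phf2 (0.29) and Riox2 (-0.16). Apart from Uty and Jarid2, these genes were named after their values were seen. The summed level of the Kdm genes with this domain, Kdm4d included, was 142 and 138 RPKM in OXCT1mKO and 99.8 and 105 RPKM in control, and Kdm6b made up the largest part of the difference.

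None of the 6 methyltransferases of lysine 36, lysine 79 and histone H4 lysine 20 was called by limma. At an unadjusted p under 0.05, 3 were higher and 1 lower, beside 3029 higher and 2971 lower of all 12523 genes tested. Setd2, the sole enzyme known for trimethylation of lysine 36 in most mammalian cells, came nearest at 0.43 (limma adjusted p 0.0519). Dot1l of lysine 79 was at 0.40, Nsd1 of lysine 36 at 0.37 (-0.01 with the length trend removed) and Kmt5a, which monomethylates lysine 20 in dividing cells, at -0.23.

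In the last group, of SET family genes with other or unsettled substrates, Setd6 fell. Setd6, known for methylating the NF-kB subunit RelA, was at 5.75 and 5.91 RPKM in OXCT1mKO and 8.68 and 9.46 RPKM in control (-0.56 ± 0.10, limma adjusted p 0.0196), with no overlap between groups. Setd3, which methylates a histidine of actin, and Setd5 were not called (-0.09 and 0.23), and Setd5 was at -0.17 with the length trend removed.

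The direction of change went with gene length, in the members and in the table as a whole. Over 12310 tested genes with a length, the Spearman correlation across genes between log2 fold change and summed exon length was 0.31. Over the 44 tested members it was 0.61, and over the 16 H3K4 members 0.73. Genes are not independent replicates, they share the 4 libraries, and no p is given. The median log2 fold change was -0.23 in the shortest of 4 length classes of like size, up to 2.54 kb, and 0.23 in the longest, from 6.53 kb. The members were long, with a median of 7.20 kb against 4.20 kb over all genes, and the H3K4 methyltransferases had a median of 11.4 kb against 3.76 kb for the shared subunits.

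**Figure D4:**
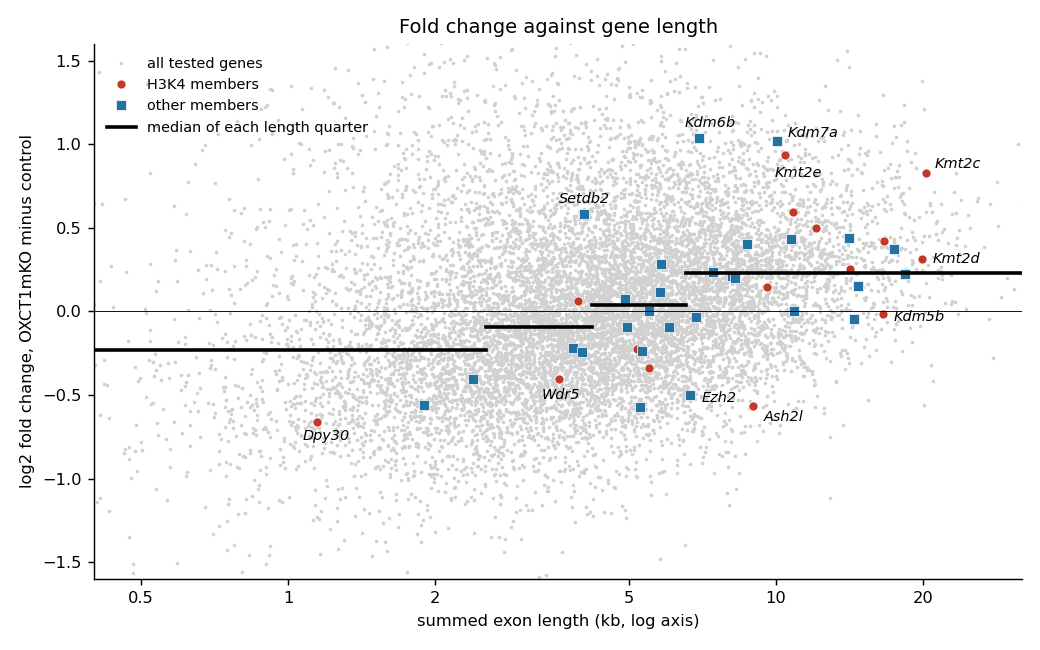
Log2 fold change (OXCT1mKO minus control) against summed exon length (kb, log axis) for all tested genes (grey), the 16 H3K4 members (red circles) and the 28 other tested members (blue squares). Black bars mark the median of all genes in each of 4 length classes, from -0.23 in the shortest to 0.23 in the longest, and 418 genes lie outside the axes.

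A length trend was then removed from each library, an alternative chosen after seeing the data, and 9 of the 13 calls remained. Over the 12310 genes of that fit 1593 were called higher and 2027 lower, with a median of -0.05. The Spearman correlation was then 0.036 over all genes, but still 0.34 over the tested members and 0.54 over the H3K4 members, so the relation was reduced and not removed among the members. Kdm6b (0.88, limma adjusted p 0.0161), Kdm7a (0.77, 0.0157), Kmt2e (0.67, 0.0226) and Setdb2 (0.57, 0.0252) were still called higher. Ash2l, which is 8.97 kb long and fell, was at -0.79 (limma adjusted p 0.0146). Ezh2 (-0.65, 0.0194), Suv39h1, Setd6 and Wdr5 (-0.39, 0.0392) were called lower as well. Kmt2c (0.42, 0.0518), Setd7 (0.32, 0.0608), Dpy30 (-0.46, 0.06) and Kdm3b (0.10, 0.542) were no longer called. The H3K4 methyltransferases then had a median of 0.12, with 1 of 8 called, and the shared subunits -0.43, with 2 of 4 called. The uncalled members Ehmt2, Kdm5a, Kmt2b, Kmt2d, Kmt5b, Nsd1 and Setd5 changed sign, with Kmt2d at -0.09 and Kmt5b at -0.19. Kdm1b (-0.44), Kdm2a (-0.39) and Kmt5a (-0.32) were called lower in that fit.

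Histone methylation genes outside the family rule were compared in the same fit. Of 46 symbols listed, older names of the same genes included, 41 were in the table and 37 were tested. Of these, 5 were called higher and 7 lower, or 32.4%, near the 32.8% of all genes. With the length trend removed, 2 were called higher and 7 lower. The values below are as deposited. Smyd2, a lysine methyltransferase known for nonhistone substrates such as p53, fell, with 18.3 and 19.3 RPKM in OXCT1mKO and 39.5 and 36.5 RPKM in control (-0.98 ± 0.09, limma adjusted p 0.0127). Its relative Smyd5 fell by 0.54 on the log2 scale. Rcor1, the CoREST scaffold that recruits KDM1A, was at 6.72 and 7.76 RPKM in OXCT1mKO and 4.03 and 3.78 RPKM in control (0.75 ± 0.12, limma adjusted p 0.0155). Hdac2, a deacetylase of the same complex, fell by 0.46 on that scale, so the 2 partners moved in opposite directions.

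On the log2 scale Jarid2, a PRC2 accessory protein, rose by 0.65, and Rbbp7, a histone-binding subunit of PRC2, fell by 0.37. Ash1l, a lysine 36 methyltransferase, rose by 0.61, and so did Mecom, a zinc finger factor with a PR domain, by 0.52. Psip1, which ties KMT2A and menin to chromatin, fell by 0.39. Uty, the Y-linked relative of the lysine 27 demethylases, rose by 0.85, with 1.82 and 1.74 RPKM in OXCT1mKO and 0.427 and 0.654 RPKM in control. These levels were near the mean of 1 RPKM required for testing. Uty lies on a sex chromosome, as do the genes left out of the members, and the cause of its difference was not tested.

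The supply of methyl groups was followed through 12 genes of the methionine and folate cycles, of which 2 rose and 5 fell, or 58.3%, where 32.8% of all genes were called. Ahcy, which clears the S-adenosylhomocysteine left by every methyltransferase, was at 25.4 and 25.7 RPKM in OXCT1mKO and 44.1 and 39.6 RPKM in control (-0.69 ± 0.09, limma adjusted p 0.0131). In log2 fold changes, the folate enzymes Shmt1 (-0.78), Shmt2 (-0.72) and Mthfd1 (-0.43) fell, as did Mat2b (-0.38), the regulatory subunit of the enzyme that makes S-adenosylmethionine. Its catalytic subunit Mat2a was not called, at 34.5 and 34.6 RPKM in OXCT1mKO and 33.0 and 32.5 RPKM in control (0.07 ± 0.08). Mtr (0.53) and Ahcyl2 (0.59) rose. With the length trend removed, 1 of the 12 genes was called higher and 5 lower. Gnmt, a glycine methyltransferase abundant in liver, had the widest difference of the list without passing, at 27.7 and 13.7 RPKM in OXCT1mKO and 9.07 and 6.07 RPKM in control (1.28 ± 0.36, limma adjusted p 0.0518).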

How the data were processed

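Polyadenylated RNA of 2 OXCT1mKO and 2 control samples was profiled, and groups and replicate numbers came from the sample titles. The authors deposited 1 table of RPKM values; per the submitters' processing notes STAR 2.10, R 4.0.5 and build mm10 were used, while the sources used here name no counter, strand setting or gene lengths, and the extract protocol speaks of a microarray although the series is typed as sequencing. The 12523 genes that averaged 1 RPKM or more were tested on log2(RPKM + 1) in limma 3.58.1 (R 4.3.3) with 1 group coefficient, a variance trend, two-sided tests and Benjamini-Hochberg adjustment over all genes at 0.05. This scale understates the change of low genes. An exact permutation test of 2 against 2 libraries cannot go below 0.333. The labels do not say that samples came from separate animals, so the spread behind each p-value is that of these samples alone and may be technical. The fit was also run on simulated data with independent noise and few changed genes, which gives no error rate for these libraries. Medians over members are descriptions. Positions and exon lengths came from GENCODE M21 (GRCm38) and promoters from RefSeq. Values are given per library for each called member, each H3K4 member and the PRC2 genes. For companion genes up to 10 with the smallest p are named, beside the JmjC genes named after their values were seen. The members and lists were chosen with earlier results of these data known. A gene of the methyl donor list is not reported here. Alternatives were the pseudocount, the low-value filter, the variance trend, 2 scalings, the replicate block, leaving out each library, and, added after seeing the data, removal of a length or GC trend.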

Additional observations from a re-analysis of the deposited data

How the results depend on the processing

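With 2 libraries per group and unknown depth, single calls rest on a spread shared over genes. Beside the fits that leave out a library, 9 settings were run, and Ash2l, Ezh2, Kdm6b, Kdm7a, Kmt2e and Setd6 were called in all 9. A pseudocount of 0.1, the fit without the variance trend, the median ratio scaling and removal of a GC trend kept all 13 called members. Without a filter on low values 1191 genes were higher and 1149 lower, among 19514 genes tested, Dpy30, Kdm3b, Setdb2 and Suv39h1 were lost and 4 members outside H3K4 were called. Scaling to equal sums gave 12 members higher and left 3 lower, without Dpy30, Suv39h1 and Wdr5, and removing the length trend left 4 higher. The median over the members was 0.0613 with a mean of at least 5 RPKM (-0.0327 over all genes) and 0.19 with equal sums (0.09 over all genes). Without the length trend it was -0.0945 (-0.0505 over all genes). At a pseudocount of 0.1 Kdm7a (1.153) and Kmt2c (1.104) stood above Kdm6b (1.069) and Kmt2e (1.045), an order unlike that with 1. The H3K4 median minus that of the other members was 0.0052, and became -0.11 with at least 5 RPKM, a filter that drops Kmt2c, and -0.0744 without Kmt2e and Setd7. Signs turned for uncalled genes, with Kdm5a at -0.0852, Kmt2b at -0.10 and Kmt2d at -0.0933 without the length trend (and also for Ehmt2, Kmt5b, Nsd1 and Setd5), Rbbp5 at -0.0029 without the GC trend, and Kdm5b at 0.0737, Setd1a at 0.0519 and Suz12 at 0.001 with equal sums (and also for Kdm2a, Kdm2b, Setd3 and Setdb1). The cause was not tested.

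Leaving out 1 library gave 0 to 9 members higher, 0 to 6 lower, 0 to 7 H3K4 members and 0 to 7 other members called, and 0 to 2362 genes higher and 1 to 2056 lower, the lowest without an OXCT1mKO library. The median over the members ranged from 0.0754 to 0.14 and the H3K4 difference from -0.0027 to 0.12. Kdm5b ranged from -0.15 to 0.12, Setd1a from -0.10 to 0.0284 and Suz12 from -0.19 to 0.0017. Same-numbered libraries had a correlation of deviations over genes of 0.0545. With 2 libraries per group, this single value cannot show whether same-numbered libraries shared a batch. With the replicate block 11 of the 13 members were called, without Kdm3b (adjusted p 0.0549) and Wdr5 (0.0558), and 1871 genes were higher and 1735 lower.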
